A study of Mus musculus with 6 samples.

Results

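Interferon-response and class I antigen presentation genes were examined in mouse pancreatic islets during pregnancy. The set was a list of 41 named genes taken by gene symbol. Of these, 39 were represented by at least 1 probe set that the platform annotation assigns to a single gene, out of 18193 such genes on the array, and each gene was represented by its brightest probe set. The signal was high enough to test in 37 of the 39, against 12914 genes tested in all. Isg15 was named only on a probe set shared with another gene, and Ifi44 was not named on the platform table used here, so neither was analysed here. Mx1 and Cxcl9 were too dim to test.

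Islets were isolated by collagenase digestion from pregnant mice at 12.5 days post coitum (dpc) and from non-pregnant mice (0 dpc), with 3 arrays in each group. The study asked which factors make islet cells divide in pregnancy. The labels name no other treatment or allele, and the sources used here do not give strain or age. The labels do not say whether the arrays of a group came from different mice or from pooled islets, so the spread between them may be technical.

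Interferons are secreted proteins that bind receptors on the cell surface and act through the JAK kinases and the STAT transcription factors. Type I interferon assembles a complex of STAT proteins with IRF9 on a DNA element called the interferon-stimulated response element (ISRE), while interferon gamma acts through STAT binding to the gamma-activated site (GAS). The induced genes block viral replication and increase the display of peptides on class I molecules, in which a heavy chain such as H2-K1 or H2-D1 pairs with beta-2 microglobulin and takes up peptides that the TAP transporter brings into the endoplasmic reticulum. In islets this programme is best known from autoimmune diabetes, in which beta cells display large amounts of class I.

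The promoters of 4 members are printed as examples of windows that hold a searched motif, from genes with different values. Isg20 rose in pregnancy, Cxcl10 had the largest positive difference of the members that did not pass, Ddx58 was among those with a negative difference and no overlap, and B2m represents class I. The windows run from 250 bases before to 50 bases after a RefSeq start on GRCm38.p6, 5′ to 3′ on the strand of the gene, and capitals mark the motif found. They lie at chr7:78913174-78913473 (+ strand, the first of 3 Isg20 windows), chr5:92348840-92349139 (- strand), chr4:40239776-40240075 (- strand) and chr2:122147437-122147736 (+ strand).
Isg20: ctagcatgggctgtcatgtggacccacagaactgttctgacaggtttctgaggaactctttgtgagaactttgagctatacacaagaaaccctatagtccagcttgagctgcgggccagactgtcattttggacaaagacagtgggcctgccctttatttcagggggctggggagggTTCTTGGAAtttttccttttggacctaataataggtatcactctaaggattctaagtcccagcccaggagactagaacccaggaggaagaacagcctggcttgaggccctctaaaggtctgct
Cxcl10: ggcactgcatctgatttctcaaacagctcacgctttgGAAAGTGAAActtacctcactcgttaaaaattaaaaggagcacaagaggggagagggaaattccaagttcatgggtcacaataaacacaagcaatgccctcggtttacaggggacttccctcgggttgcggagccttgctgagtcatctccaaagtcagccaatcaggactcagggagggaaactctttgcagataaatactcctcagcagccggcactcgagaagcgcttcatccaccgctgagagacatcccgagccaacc
Ddx58: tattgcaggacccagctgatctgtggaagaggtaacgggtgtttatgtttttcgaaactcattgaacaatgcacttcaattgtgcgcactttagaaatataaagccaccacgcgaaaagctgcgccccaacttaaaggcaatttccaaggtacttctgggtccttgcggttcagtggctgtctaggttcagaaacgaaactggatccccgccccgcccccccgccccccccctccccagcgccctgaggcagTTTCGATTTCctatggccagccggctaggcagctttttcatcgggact
B2m: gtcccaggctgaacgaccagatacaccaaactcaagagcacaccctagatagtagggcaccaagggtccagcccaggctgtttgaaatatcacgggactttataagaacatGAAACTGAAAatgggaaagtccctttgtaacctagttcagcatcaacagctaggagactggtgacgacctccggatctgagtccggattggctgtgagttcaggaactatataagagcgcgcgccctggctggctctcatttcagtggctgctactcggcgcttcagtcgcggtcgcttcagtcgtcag

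The motif searched for the ISRE was GAAA, then any 2 bases, then GAAA, and the one for the GAS was TTC, then any 3 bases, then GAA, both on either strand. The GAS letters read the same on both strands and also serve other STAT proteins. RefSeq promoter windows were found for 33 of the 41 members. The ISRE letters were in 37.5% of the 40 member windows, against 3.44% of all 32851 promoter windows. For the GAS letters these shares were 27.5% and 8.3%. No printed motif overlapped another. In the Isg20 window a GAS match began 73 bases upstream of the start, and neither motif was found in its other 2 windows. In Cxcl10 and B2m an ISRE match began 213 and 139 bases upstream, and in Ddx58 one began at base 3 of the transcript on the reverse strand. Among tested members, the median log2 difference was -0.07 in the 14 with ISRE letters and 0.07 in the 16 with a window and none. The window of Irf7, which had a larger negative difference than Ddx58, held neither motif. These matches are letters in a window and do not show a bound site.

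Isg20 was the single member that passed the test, and it was higher in pregnant islets. It encodes an exonuclease that degrades single-stranded RNA, and its human counterpart is known to be induced by estrogen as well as by interferon. Its MAS5 signal, a scaled hybridisation intensity, was 8150, 8145 and 8037 on the pregnant arrays, against 4190, 4655 and 4156 on the non-pregnant arrays. The groups stand well apart, and the pregnant values lie close together. Mean signals were 8111 ± 63.7 in pregnant and 4333 ± 278.9 in non-pregnant islets (SD, n = 3 each), a ratio of 1.87. On the scale of log2(signal + 16) the difference, pregnant minus non-pregnant, was 0.90 ± 0.06 (SE; 95% interval 0.77 to 1.04; limma adjusted p = 3.0e-06). By p it ranked 27 among the 12914 genes tested and by log2 difference 168.

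The other interferon and class I genes did not pass the test. In limma with Benjamini-Hochberg adjustment over all probe sets, 1 of 37 members was higher at an adjusted p under 0.05 and 0 were lower, a share of 2.7%, against 11.9% of all genes tested (6.1% higher and 5.79% lower). At an unadjusted p under 0.05 there were 9 members (5 higher and 4 lower), or 24.3%, against 27.2% of all genes. The groups did not overlap in 8 members (4 higher and 4 lower), or 21.6%, against 31.8% of all genes (13.9% higher and 17.9% lower). Differences were positive in 19 members and negative in 18, and their median was 0.0026, against -0.04 over all genes tested. Of the other 36 members, 31 had a 95% interval that lay entirely below that of Isg20. Isg20 was singled out by these same values, so this describes its place in the list and is not a test. The 95% interval lay within 1 log2 unit of 0, so within a doubling or halving, in 31 of 37 members (83.8%; 88.5% of all genes), and within 0.5 in 17 (45.9%; 53.9%). A p that misses the threshold does not show that a gene stayed level, and these intervals give the range of change that each measurement leaves.

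**Figure D1:**
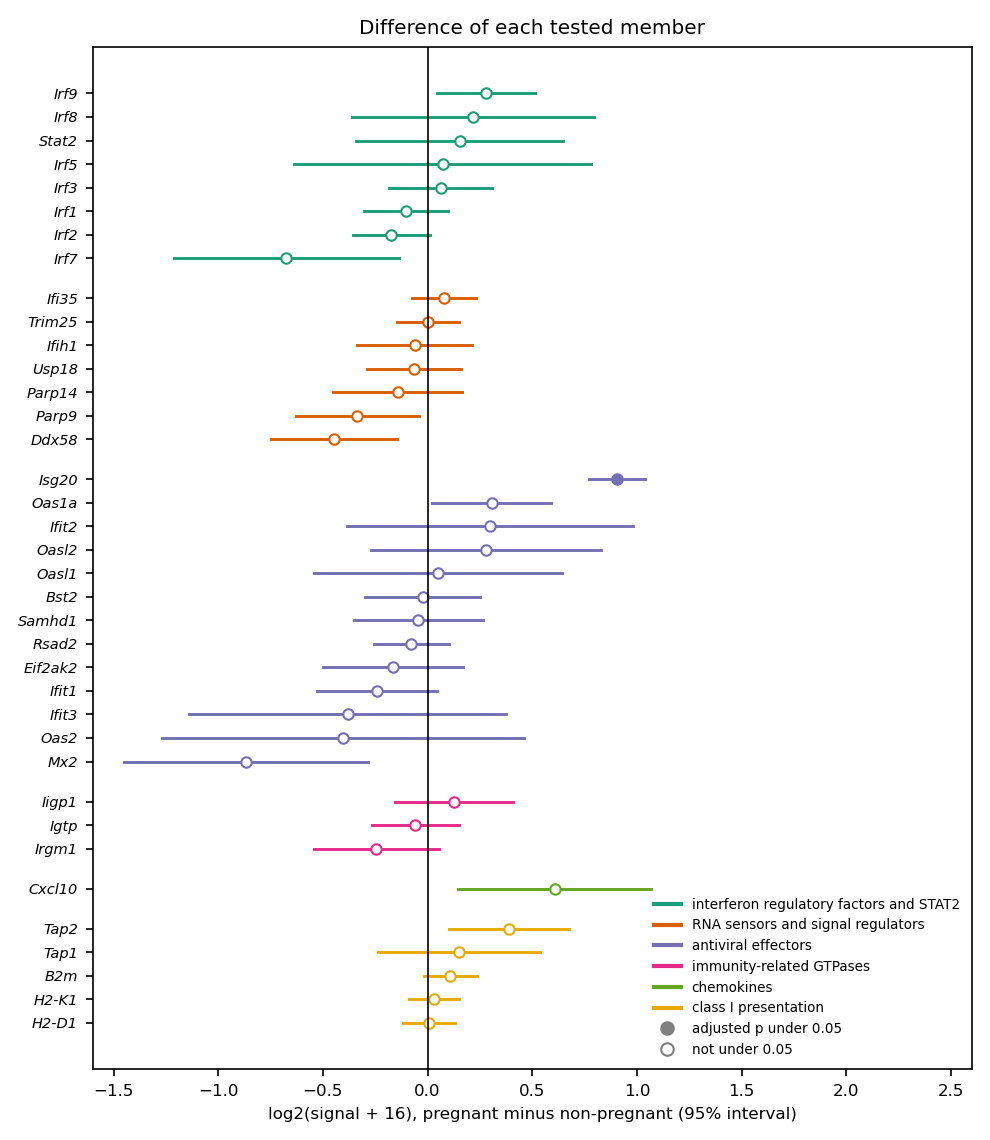
Difference in log2(signal + 16), pregnant minus non-pregnant, for the 37 tested members grouped by role (horizontal axis, log2 units). Points are limma estimates from 3 arrays a group, bars are 95% intervals, and the filled point is the 1 member with an adjusted p under 0.05, Isg20 at 0.90.

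**Figure D2:**
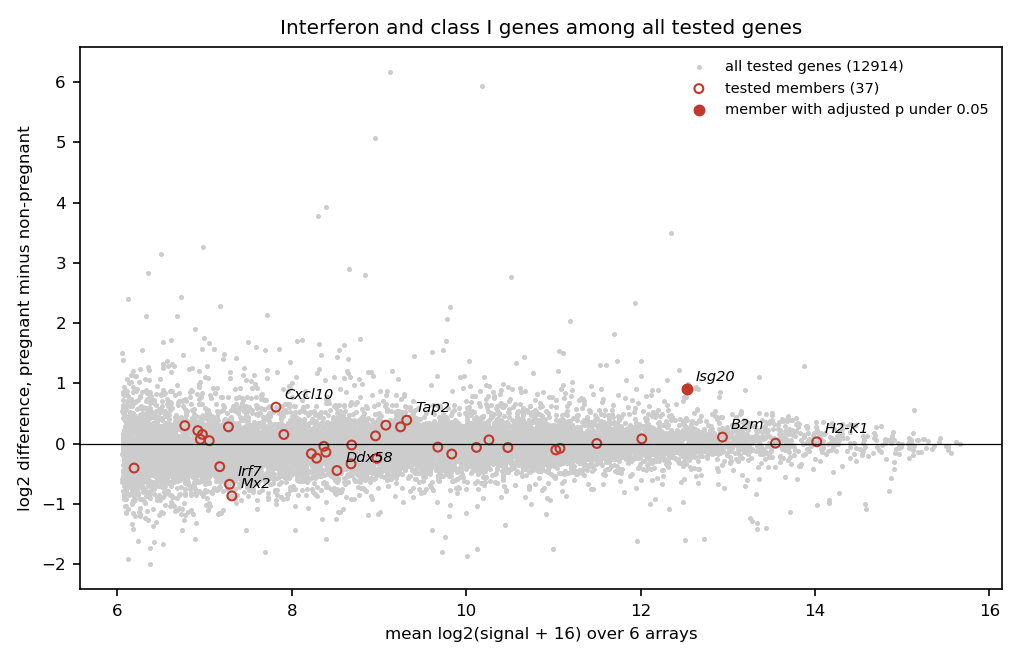
Log2 difference, pregnant minus non-pregnant (vertical axis), against the mean log2(signal + 16) over 6 arrays (horizontal axis) for all 12914 tested genes in grey and the 37 tested members as circles. Apart from Isg20 (filled, 0.90) the members lie between -0.87 and 0.61, inside the grey cloud.

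The transcription factors of the pathway gave no member past the threshold, with 8 tested, where 11.9% of all genes tested passed. Irf9, the DNA-binding subunit of the type I interferon complex, had signals of 630.9, 727.5 and 606.9 in pregnant islets, against 529.4, 555.6 and 522.7 in non-pregnant islets. The groups did not overlap, but the log2 difference of 0.28 ± 0.11 (SE) missed the threshold (limma adjusted p = 0.14). Irf7, which amplifies type I interferon production, stood the other way round. Its signals were 71.7, 135.3 and 125.9 in pregnant islets, against 222.1, 156.1 and 170.6 in non-pregnant islets, with a log2 difference of -0.67 ± 0.25 (adjusted p = 0.12). The lowest pregnant array and the highest non-pregnant array are far from their groups, and its 95% interval, -1.21 to -0.14, is wide.

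Irf1, a factor induced mainly by interferon gamma, had mean signals of 1999 ± 63.6 in pregnant and 2161 ± 292.3 in non-pregnant islets (SD, n = 3 each), a log2 difference of -0.10 with a 95% interval of -0.30 to 0.10. Irf2, which antagonises Irf1, averaged 844.2 ± 22.7 in pregnant and 953.6 ± 33.3 in non-pregnant islets, without overlap (log2 difference -0.17, adjusted p = 0.26). Stat2, the partner of Irf9, ranged from 99.6 to 130.7 in pregnant and from 86.1 to 119.4 in non-pregnant islets. Irf5, known from macrophages, ranged from 97.9 to 129.1 in pregnant and from 52.5 to 160.8 in non-pregnant islets. Irf8, a factor of myeloid and lymphoid cells, ranged from 104 to 124.6 in pregnant and from 66.4 to 140.8 in non-pregnant islets. The groups overlapped in all of Stat2, Irf5 and Irf8. For Irf8 the log2 difference was 0.22, while a second probe set had -0.41 (limma adjusted p = 0.69 and 0.48).

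Irf3, the factor activated directly by viral RNA sensing, gave different answers in its 4 probe sets. The brightest averaged 1247 ± 184.5 in pregnant and 1189 ± 127.1 in non-pregnant islets (log2 difference 0.06, adjusted p = 0.81). Its name ends in x_at, the mark of probes that can also bind other transcripts. The second probe set had 181.6, 144 and 157.9 in pregnant islets, against 284.4, 223.2 and 248.1 in non-pregnant islets. That difference of -0.60 ± 0.17 (SE) was just past the threshold (adjusted p = 0.048), did not pass in any of 6 fits with 1 array left out (0.062 to 0.14), and was under the threshold in 4 of 18 alternatives in all. The other 2 probe sets had -0.29 and -0.15 (adjusted p = 0.40 and 0.75). Of 66 tested member probe sets, this one was the 1 called lower and that of Isg20 the 1 called higher, against 4.78% lower, 4.79% higher and 9.57% in either direction over all probe sets tested.

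Sensors of viral RNA and regulators of the signal gave 0 members past the threshold of 7 tested in limma, with 2 at an unadjusted p under 0.05. Over all genes tested these shares were 11.9% and 27.2%. Ddx58, which encodes the RNA sensor RIG-I, had 262.4, 338.3 and 297.9 in pregnant islets, against 371.9, 425.4 and 441.5 in non-pregnant islets. Every pregnant array was below every non-pregnant array, with a difference of -0.45 ± 0.14 (SE; adjusted p = 0.066; 0.0499, just under the threshold, when the filter kept the top 40% of probe sets). A second Ddx58 probe set had -0.53 (adjusted p = 0.11), and another, dimmer one had 0.28 (adjusted p = 0.56). Parp9, an ADP-ribosyltransferase partner of the antiviral ubiquitin ligase DTX3L, had 330, 339.8 and 378.8 in pregnant islets, against 487.4, 377.3 and 477.5 in non-pregnant islets (log2 difference -0.34 ± 0.13, adjusted p = 0.16), with overlap of 1 array a side.

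The remaining regulators did not pass. Ifih1, the long-RNA sensor MDA5, averaged 1077 ± 136.7 in pregnant and 1130 ± 186.2 in non-pregnant islets. The ubiquitin ligase Trim25, which activates RIG-I, had signals of 2727, 2908 and 3008 in pregnant islets, against 2831, 3001 and 2792 in non-pregnant islets, and its 95% interval ran from -0.14 to 0.15. Ifi35, an interferon-induced leucine zipper protein, had 3981, 4405 and 4332 in pregnant islets, against 4250, 4070 and 3723 in non-pregnant islets (95% interval -0.07 to 0.23). The groups overlapped in both Trim25 and Ifi35. The other Ifi35 probe sets had -0.10 and -0.06 (limma adjusted p = 0.60 and 0.79). Usp18, the protease that removes ISG15 and damps the interferon receptor, averaged 1382 ± 123.3 in pregnant and 1450 ± 174.8 in non-pregnant islets (95% interval -0.29 to 0.16). Parp14, an ADP-ribosyltransferase, averaged 305.3 ± 41.7 in pregnant and 337.3 ± 23.9 in non-pregnant islets. A second Parp14 probe set, too dim to test, had -1.05 without overlap. With its probe sets averaged Parp14 had -0.60 (limma adjusted p = 0.073).

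Among antiviral effectors, 1 of 13 tested rose, Isg20, and 0 fell, where 6.1% of all genes tested rose and 5.79% fell. Mx2, an interferon-induced dynamin-like GTPase, had the largest negative difference of all members. Its signals were 141.1, 95.6 and 76.8 in pregnant islets, against 267.3, 211.8 and 137.2 in non-pregnant islets. The highest pregnant and the lowest non-pregnant array cross. The log2 difference was -0.87 ± 0.27 (SE; adjusted p = 0.065), and it passed without non-pregnant replicate 3 (-1.11, adjusted p = 0.029). Oas1a, a synthase of the 2-5A messenger that activates RNase L, had 520.5, 654.3 and 588.5 in pregnant islets, against 424.4, 444.7 and 550.5 in non-pregnant islets. The groups overlap by 1 array a side, and the log2 difference was 0.31 ± 0.13 (adjusted p = 0.18).

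The IFIT genes, Rsad2 and Eif2ak2 did not pass. Ifit1, which binds viral RNA caps, averaged 271.1 ± 14.3 in pregnant and 323.5 ± 17.0 in non-pregnant islets, without overlap (log2 difference -0.24, adjusted p = 0.31). Its relatives Ifit2 and Ifit3 had differences of opposite sign, 0.30 and -0.38, with standard errors of 0.31 and 0.35. Rsad2, the antiviral enzyme viperin, averaged 2085 ± 48.3 in pregnant and 2209 ± 219.7 in non-pregnant islets (95% interval -0.26 to 0.10), and its other 2 probe sets had 0.03 and 0.11. Eif2ak2, the RNA-activated kinase PKR, averaged 268.9 ± 45.1 in pregnant and 300.8 ± 4.49 in non-pregnant islets (log2 difference -0.17). A second, dimmer Eif2ak2 probe set had -0.21 without overlap, and another had 0.31 (limma adjusted p = 0.53 and 0.67).

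The tethering factor Bst2, which holds budding virus at the membrane, averaged 392.9 ± 14.3 in pregnant and 401.0 ± 47.6 in non-pregnant islets. Samhd1, which depletes deoxynucleotides, ranged from 284.9 to 327 in pregnant and from 274.8 to 350.5 in non-pregnant islets. The 95% intervals of Bst2 and Samhd1 were -0.30 to 0.25 and -0.35 to 0.26. A second, dimmer Samhd1 probe set had 0.33 without overlap (limma adjusted p = 0.31), and the other tested ones had -0.18 and -0.08. The oligoadenylate synthetase relatives Oas2, Oasl1 and Oasl2 were dim, with mean signals between 52.8 and 156.7 in pregnant islets and between 69.4 and 128.3 in non-pregnant islets, and with standard errors of 0.25 to 0.40. Mx1 was listed at 52.7, 32.4 and 19.7 in pregnant islets, against 59.7, 20.8 and 64.2 in non-pregnant islets, below the level tested.

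The immunity-related GTPases, which act in defence against intracellular parasites and answer mainly to interferon gamma, gave 0 of 3 past the threshold in limma. At an unadjusted p under 0.05 there were 0. Over all genes tested these shares were 11.9% and 27.2%. Igtp averaged 785.6 ± 36.3 in pregnant and 819.5 ± 62.2 in non-pregnant islets (SD, n = 3 each). Irgm1 averaged 449.4 ± 62.6 in pregnant and 534.6 ± 70.5 in non-pregnant islets, and Iigp1 505.0 ± 21.7 in pregnant and 464.2 ± 75.8 in non-pregnant islets. The 95% intervals of Igtp, Irgm1 and Iigp1 ran from -0.27 to 0.15, from -0.54 to 0.06 and from -0.15 to 0.41.

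Of the chemokines that draw CXCR3-bearing T cells, Cxcl10 was measurable and Cxcl9 was not. Cxcl10 had signals of 318.7, 265 and 213.5 in pregnant islets, against 121.3, 190.5 and 199.8 in non-pregnant islets. All pregnant arrays were higher, by a narrow gap between the closest pair. The log2 difference was 0.61 ± 0.21 (SE; 95% interval 0.14 to 1.07), the largest positive difference after Isg20, but the adjusted p was 0.10. Over the alternatives it ran from 0.19, with the acinar marker level as a covariate, to 0.75, and it passed in none of 19. Cxcl9 was listed at 28.7, 2.7 and 12.7 in pregnant islets, against 20.3, 29.5 and 6.4 in non-pregnant islets, which lies within the 1.1 to 32.3 of control probe sets for a bacterial transcript.

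**Figure D3:**
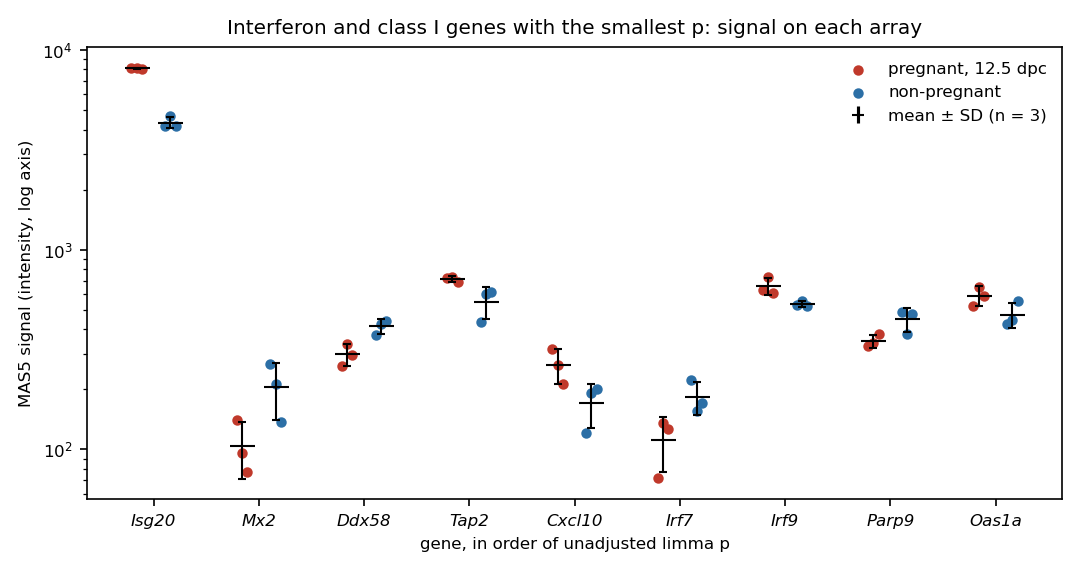
MAS5 signal on each array (vertical log axis, intensity) for the 9 members with an unadjusted p under 0.05, in order of p. Points are arrays, pregnant left of non-pregnant, and bars are mean ± SD (n = 3). The Isg20 groups lie far apart (8037 to 8150 in pregnant, 4156 to 4655 in non-pregnant), while those of Mx2, Parp9 and Oas1a overlap.

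Of the class I presentation genes 0 of 5 passed in limma, with 1 at an unadjusted p under 0.05. Over all genes tested these shares were 11.9% and 27.2%. Both heavy chains and B2m had standard errors of 0.06. H2-K1, a heavy chain, had 16984, 16418 and 16964 in pregnant islets, against 15349, 17109 and 16896 in non-pregnant islets. The pregnant values lie inside the non-pregnant range, and the 95% interval of the log2 difference was -0.09 to 0.15. H2-D1, the other heavy chain, had 11855, 12164 and 11949 in pregnant islets, against 11126, 12678 and 12032 in non-pregnant islets, again within the non-pregnant range, with an interval of -0.12 to 0.13. Most probe sets of both genes end in x_at and can bind other heavy chain transcripts, so these values may combine several class I genes. Of their 10 tested probe sets, 0 passed the threshold, against 9.57% of all probe sets tested.

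B2m, the shared light chain, had 7760, 8386 and 8287 in pregnant islets, against 7821, 7162 and 7675 in non-pregnant islets. The lowest pregnant array falls among the non-pregnant ones, and the log2 difference was 0.11 ± 0.06 (SE; adjusted p = 0.30). A second B2m probe set had 0.14 ± 0.06, with no overlap (adjusted p = 0.18). Tap2, a subunit of the peptide transporter, had 722.3, 733.9 and 688.1 in pregnant islets, against 432.5, 598.7 and 613.4 in non-pregnant islets. The pregnant values lie close together and above all others, with a log2 difference of 0.39 ± 0.13 (adjusted p = 0.091). Median centring of the arrays put it past the threshold (0.46, adjusted p = 0.041). Without non-pregnant replicate 1, the lowest array, the difference was 0.23, and with the acinar covariate 0.19. Its partner Tap1 had 249.7, 231.8 and 230.8 in pregnant islets, against 226.1, 255 and 164.6 in non-pregnant islets, and a log2 difference of 0.15 ± 0.18.

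One array, non-pregnant replicate 2, was often the highest. The median over members of the value on an array, after subtracting each gene's mean over 6 arrays, was -0.01, 0.02 and 0.01 on pregnant arrays, against -0.02, 0.08 and 0.01 on non-pregnant arrays (log2 units). Non-pregnant replicate 2 held the highest value for 12 of 37 members and the lowest for 1, while the other arrays held the highest for 3 to 8 and the lowest for 5 to 9. These counts were not made over all genes. The array also had the highest median signal over all probe sets, 100.3, against 86.1 to 95.4 on the others. With that array left out, Isg20 was still the 1 member past the threshold, at 0.96 (limma adjusted p = 4.8e-06).

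**Figure D4:**
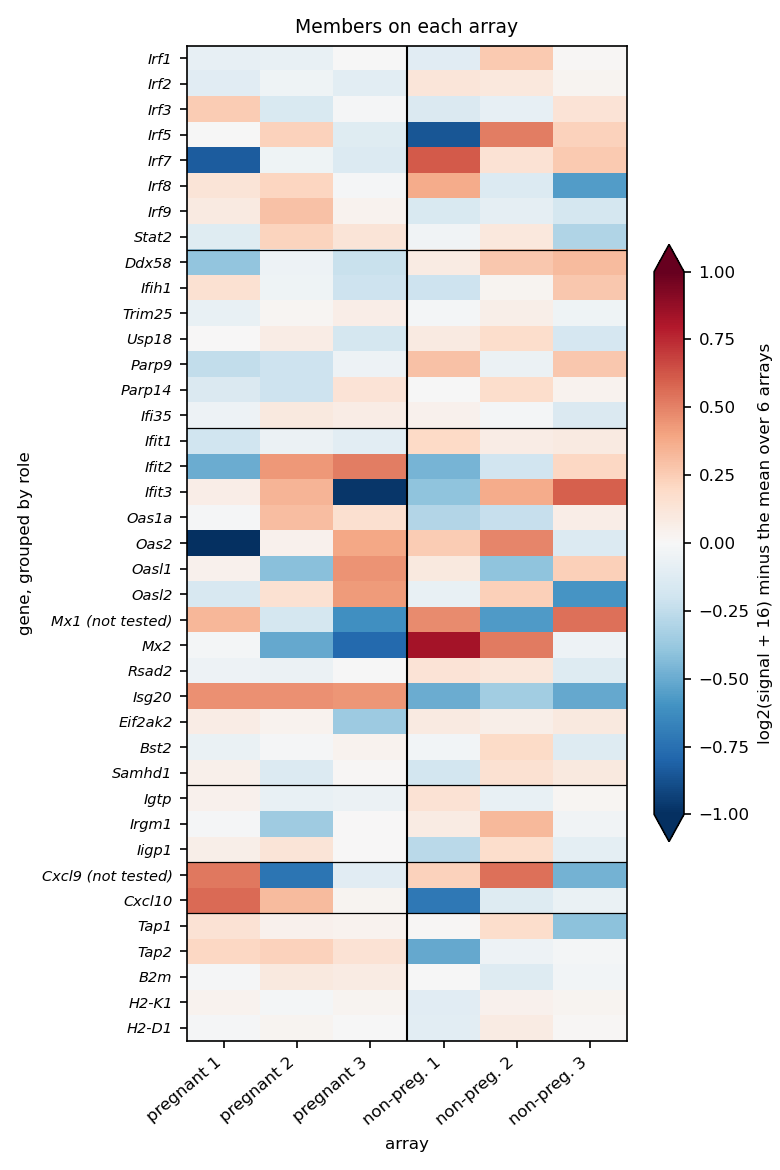
Log2(signal + 16) of the 39 members with a probe set (rows, by role) on each array (columns, pregnant left), minus the gene's mean over 6 arrays. Isg20 is red on all 3 pregnant and blue on all 3 non-pregnant arrays, while most other rows mix colours within both groups.

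Genes around the members in the pathway were examined from lists of 117 genes named on the array. In limma 4 of the 96 tested were higher and 1 was lower, with a median of -0.05, against 6.1% higher and 5.79% lower over all genes. At an unadjusted p under 0.05 there were 21 (27.2% of all genes), and the groups did not overlap in 13 higher and 13 lower (13.9% and 17.9% of all genes). The interferon ligands Ifng, Ifna1, Ifna2 and Ifna4 were too dim to test. Their mean log2 level over 6 arrays was within the bacterial control range, though single arrays reached 85 for Ifna1 and 63.1 for Ifna2. Of 7 ligand and receptor genes tested, 0 passed and 0 had an unadjusted p under 0.05. Among them was the ligand Ifnb1, dim but above the level tested. It had 114.2, 36.4 and 43.2 in pregnant islets, against 51.7, 59.8 and 56.9 in non-pregnant islets (0.04, limma adjusted p = 0.97). The receptor chain Ifnar2 averaged 1514 ± 82.0 in pregnant and 1389 ± 118.0 in non-pregnant islets, and Ifngr1 554.5 ± 37.3 in pregnant and 570.8 ± 19.4 in non-pregnant islets. Of 12 JAK-STAT genes and inhibitors, 0 passed and 4 had an unadjusted p under 0.05, against 27.2% of all genes. The median difference there was -0.12, and the IRF2 co-repressor Irf2bp2 had -0.27 (adjusted p = 0.054). Of 11 nucleic acid sensing genes 1 rose, Irak1, a kinase of Toll-like receptor signalling, with 6473, 6456 and 6434 in pregnant islets, against 5459, 5580 and 5475 in non-pregnant islets (0.23 ± 0.05, adjusted p = 0.018). It did not pass when any of the 3 pregnant arrays was left out (0.061 to 0.076).

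Among 40 other interferon-induced genes, 2 rose, both guanylate-binding proteins, and 0 fell. Over all genes tested 6.1% rose and 5.79% fell. Gbp8 had 1071, 1313 and 1081 in pregnant islets, against 42.6, 80.3 and 92.7 in non-pregnant islets (3.78 ± 0.21, limma adjusted p = 6.4e-07). Gbp3 had 232.5, 214.8 and 245 in pregnant islets, against 139.7, 139.7 and 161.6 in non-pregnant islets (0.60 ± 0.17, adjusted p = 0.042), and did not pass in any of 6 fits with 1 array left out (0.059 to 0.13). The list's median was -0.07.

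In peptide loading and the wider class I group, 1 of 18 rose and 1 fell, where 6.1% of all genes tested rose and 5.79% fell. Tapbpl, the peptide editor TAPBPR, had 2150, 2022 and 2108 in pregnant islets, against 1270, 1401 and 1394 in non-pregnant islets. The groups are clearly apart (0.62 ± 0.07, limma adjusted p = 2.8e-04). With the acinar covariate Tapbpl had 0.56 (adjusted p = 0.065). Tapbp, or tapasin, which holds class I molecules at the TAP transporter, had 4219, 4511 and 4298 in pregnant islets, against 5181, 4833 and 5056 in non-pregnant islets (-0.21 ± 0.06, adjusted p = 0.048). It did not pass in any of 6 fits with 1 array left out (0.060 to 0.17). With median centring Tapbp had -0.13 (adjusted p = 0.44), with the acinar covariate -0.13 (0.64) and with its probe sets averaged -0.06 (0.84). Of 8 class II presentation genes 0 passed and 0 had an unadjusted p under 0.05, against 11.9% and 27.2% of all genes tested. The chain H2-Aa averaged 4250 ± 215.3 in pregnant and 4659 ± 107.3 in non-pregnant islets, and Cd74, the invariant chain, 809.0 ± 89.4 in pregnant and 749.9 ± 47.0 in non-pregnant islets.

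Immune cells, which carry much of this programme in many tissues, were followed through their markers. In bulk islets, fewer cells of a type and less RNA per cell cannot be told apart. Of 16 macrophage and dendritic cell markers tested, 1 rose and 0 fell, where 6.1% of all genes tested rose and 5.79% fell. The median of the 16 was -0.18. The summed signal of the 22 named markers was 11450 to 12504 in pregnant islets, against 8294 to 9001 in non-pregnant islets. The gene that rose was C1qa, a complement chain (1.06, limma adjusted p = 1.1e-05). The other C1q chains, C1qb and C1qc, had -0.17 and -0.25 (adjusted p = 0.38 and 0.46). Differences were negative in 11 of the 16 tested markers and positive in 5. Without C1qa the sum was 4516 to 4825 in pregnant and 5033 to 5191 in non-pregnant islets. Of 15 lymphocyte markers 5 were tested and 0 passed in limma, with 1 at an unadjusted p under 0.05 (11.9% and 27.2% of all genes). Cd3d, Cd3e, Cd3g and Cd4, which define T cells, and the CD8 chain Cd8b1 had mean log2 levels within the bacterial control range. Cd8a, a marker of cytotoxic T cells, was above it, with 322, 260.5 and 256.7 in pregnant islets, against 206.3, 215.6 and 141.5 in non-pregnant islets. The groups did not overlap (0.55, limma adjusted p = 0.090), but this Cd8a probe set ends in x_at and can also bind other transcripts. The list summed to 1213 to 1316 in pregnant and 1078 to 1382 in non-pregnant islets. Of the markers of plasmacytoid dendritic cells, which secrete type I interferon, Siglech, Ccr9 and Klk1b27 were within the bacterial control range. The other 2, Tcf4 and Cox6a2, are not specific to these cells, and Tcf4 fell (-0.26, adjusted p = 0.048).

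Acinar markers, which come from exocrine tissue carried along with islets, were lower in pregnant islets. Of 19 tested 16 fell and 0 rose, where 5.79% of all genes tested fell and 6.1% rose. The 20 named summed to 110648 to 179617 in pregnant and 189262 to 353709 in non-pregnant islets. Of 14 stellate cell and fibroblast markers 3 fell and 1 rose, with a median of -0.29. Dcn, a matrix proteoglycan, had -1.20, while Col6a3, a collagen chain, had 0.67. Of 15 endothelial markers 2 fell, Ptprb (-0.63) and Flt1 (-0.47), and 0 rose. Acinar and macrophage covariates were fitted, but the part of these cells in the members' values was not tested. The acinar median, after subtracting each gene's mean, was -0.88, -0.64 and -0.23 on pregnant arrays, against 0.94, -0.12 and 0.99 on non-pregnant arrays. These levels did not overlap, so a fit with the acinar covariate cannot tell acinar content and pregnancy apart. For the labelled tissue, the 16 beta cell markers summed to 273731 to 278958 in pregnant and 268944 to 283120 in non-pregnant islets. In that list Pcsk1, a prohormone convertase, rose (0.94, limma adjusted p = 6.0e-06), and the transporters Slc2a2 (-0.25) and Slc30a8 (-0.29) fell. With the acinar median of each array as a covariate, Isg20 had 0.76 (limma adjusted p = 0.0027), and with the macrophage median 0.93 (adjusted p = 5.2e-04). The 3' to 5' ratio of beta actin, a sign of RNA integrity, was 1.630 to 1.665 in pregnant and 1.556 to 1.626 in non-pregnant islets, without overlap. That of Gapdh was 0.687 to 0.725 in pregnant and 0.669 to 0.711 in non-pregnant islets, with overlap. The part of RNA integrity in these results was not tested. Array medians were 86.1 to 92.9 in pregnant and 89.9 to 100.3 in non-pregnant islets.

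**Figure D5:**
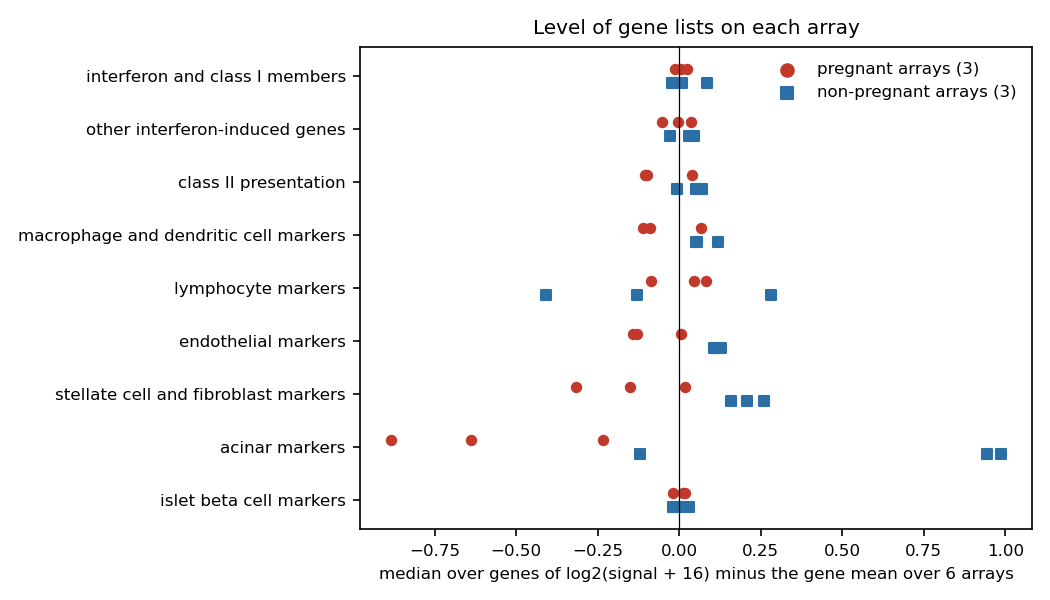
Median over the tested genes of a list of log2(signal + 16) minus each gene's mean over 6 arrays (horizontal axis), with 1 point for each pregnant (circles) and non-pregnant array (squares). The interferon and class I members stay between -0.02 and 0.08, while acinar markers reach from -0.88 to 0.99.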

How the data were processed

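RNA from islets of 3 pregnant and 3 non-pregnant samples was hybridised to Affymetrix arrays. The authors deposited MAS5 signals, an intensity on a linear scale with 1 value per probe set and array, per the submitters' processing notes, which name no version or settings. The 2% trimmed mean was 500.003 on each array, so no further normalization was applied. Of 45101 probe sets, 64 controls were left out and 27022, the top 60% by mean log2(signal + 16), were tested, a signal of about 50.5 or more. The platform annotation gave 34958 probe sets 1 symbol, 932 several and 9211 none, and 34754 were found in the RefSeq gene table with 0 symbols changed.

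The 2 groups were set against each other in limma 3.58.1 (R 4.3.3; lmFit, eBayes with a variance trend, 4 residual degrees of freedom), 2-sided, with Benjamini-Hochberg adjustment over all tested probe sets and a threshold of 0.05. An exact permutation test of 3 against 3 cannot go below 0.1 and was not used. The fit was tested on simulated data. Every member was named, with array values for those past the threshold, those with an unadjusted p under 0.05 and the 6 brightest. Of each pathway list up to 3 genes past the threshold were named, and other genes as examples chosen after their values were seen. Members, lists and tests were chosen with earlier results of these data known. Same-numbered arrays of the groups did not deviate together (correlations -0.03, -0.07 and 0.03), so they were not treated as pairs. The number of arrays limits the precision. Alternatives were 19 other settings. Plots were made in Python 3.11.15 with matplotlib 3.10.9.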

Additional observations from a re-analysis of the deposited data

How the results depend on the processing

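Isg20 passed under all 19 alternatives, with log2 differences of 0.76 to 0.98 and limma adjusted p of 1.2e-06 to 0.013. The 0.76 came with the acinar covariate, a fit that cannot tell acinar content and pregnancy apart. The count of members called higher was 1 in the report and 2 with arrays centred on their medians, where Tap2 was added. The count called lower was 0, and it was 1 with the top 40% filter (Ddx58), 1 with the replicate number as a replicate block (Mx2, adjusted p = 0.026) and 0 to 1 with 1 array left out (Mx2, without non-pregnant replicate 3). With the replicate block 1211 probe sets were higher and 1145 lower, and no other member changed its call. The members' median log2 difference was 0.08 with median centring (all genes 0.04), -0.15 with the acinar covariate, 0.09 with the macrophage covariate and -0.03 to 0.03 with 1 array left out.

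Pathway genes called higher were 4, and 1 with the acinar covariate, 2 with the macrophage covariate and 2 to 4 with 1 array left out. Those called lower were 1, against 2 with quantile normalization, with the top 40% filter and with robust eBayes, 0 with median centring, no filter, no variance trend or either covariate, and 0 to 2 with 1 array left out. Over all probe sets 1294 were higher and 1293 lower. With median centring 583 were lower. Without the variance trend 393 were higher and 210 lower. The acinar covariate left 360 higher and 175 lower, and the macrophage covariate 398 and 259. With 1 array left out 808 to 1282 were higher and 674 to 977 lower. The causes of these shifts were not tested. Fewer arrays, an added covariate or the replicate block also leave fewer degrees of freedom, and the part of that was not tested either. Signals near the bacterial control range limit what can be said of Cxcl9, Mx1 and the interferon ligands.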
